A study of Mus musculus with 4 samples.

Results

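The regions described here are stretches of mouse liver chromatin carrying acetylated lysine 27 of histone H3 (H3K27ac) that were listed in sham-operated liver, lay more than 3000 bp from the nearest transcription start site (TSS), and shared no base with any region listed 12 h after partial hepatectomy (PHx). They were chosen by their position in the sham list and by the lack of overlap with the PHx list. There were 695 such regions among 3738 distal sham regions, 11602 sham regions and 21772 regions of both groups. Their share of the distal sham regions was 18.6%, which is fixed by the rule that chose them and is given without a test. Beside it, 11.9% of the 7864 sham regions within 3000 bp of a TSS had no overlap after PHx, and 37.6% of the 2505 distal PHx regions had none in sham. The remaining 3043 distal sham regions, each sharing at least 1 base with a PHx region, are the ones set beside them below.

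Wild-type C57/BL6J mice underwent a sham operation or removal of 70% of the liver, and H3K27ac was mapped by CUT&Tag in 2 libraries per group, 4 in all. The labels give 12 h for the PHx libraries and no time for the sham libraries, while the design text speaks of 0 h, so hepatectomy and time since surgery cannot be told apart. Neither age nor sex is stated, and nothing says whether the 2 libraries of a group came from separate animals. The deposited data are 1 merged list of regions per group on GRCm39 with positions and annotation but no signal and no value per library, so only presence, position and width could be compared and the depth of the libraries is unknown.

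H3K27ac is deposited by the acetyltransferases p300 and CBP at active promoters and enhancers, and away from promoters it is widely used to mark enhancers in use. Enhancers in liver are bound by hepatocyte factors such as HNF4A, FOXA and C/EBP proteins and act on promoters that may lie far away. After partial hepatectomy the remaining hepatocytes leave quiescence and enter the cell cycle while they keep up metabolic functions. Whole liver was used, so fewer cells of a type and less acetylation per cell cannot be told apart.

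Of the hepatocyte markers looked up, 6 of 8 had a listed TSS (Alb, Ttr, Apoa1, Ass1, Hnf4a and Cebpa), and all 6 had a region there in both lists. Of 11 endothelial markers 8 had a listed TSS, with a region there for 1 in sham and 7 after PHx. Of 8 Kupffer cell markers 3 had one, with a region for 2 and 3. Of 8 stellate cell markers 2 had one, with a region for 1 and 2. Of 5 cholangiocyte markers 1 had one, with a region in both lists. A TSS is listed only for a gene assigned to a region of either list, so these counts depend on the lists they compare. No lymphocyte or neutrophil marker had a listed TSS. None of these markers was the nearest gene of any of the 695 regions except the neuronal gene Snap25, and the part of cell composition in the results was not tested.

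The nearest genes of 12 of the 695 regions were microRNAs, short RNAs that repress messages through pairing of bases 2 to 8, the seed. Mature sequences from RefSeq (GRCm38.p6) were found for 11 of the 12, giving 18 mature sequences and 18 distinct seeds, so no seed was shared. Both arms of 2 of these microRNAs are shown because their regions differ in what lay at the listed gene start, with the seed in capitals, read 5′ to 3′.
mmu-miR-34a-5p: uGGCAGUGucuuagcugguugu
mmu-miR-34a-3p: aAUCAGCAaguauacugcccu
mmu-miR-455-5p: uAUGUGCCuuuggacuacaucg
mmu-miR-455-3p: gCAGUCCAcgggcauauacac
miR-34a is a p53-induced microRNA that restrains the cell cycle. Its region (chromosome 4, 150131366 to 150137234, 5869 bp, an exon of Gm13067) lay 15677 bp upstream of the listed start of Mir34a and 19293 bp from the nearest PHx region. Neither list had a region at that start. The listed start of a microRNA gene need not be the start of its primary transcript, so these states do not describe its promoter. The region nearest to Mir455 (11454 bp, classed as 5′ UTR, chromosome 4, 63189655 to 63201108) lay 14567 bp downstream of a listed gene start that carried a region in both lists, and only 3797 bp from a PHx region. The other microRNA genes were Mir7048, Mir1902, Mir874, Mir6901, Mir6899, Mir3108, Mir6244, Mir6935, Mir12188 and Mir6541. MicroRNAs were the nearest gene of 1.73% of the 695 regions and 1.81% of the overlapping ones.

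Promoter sequences of the nearest genes are shown for 1 gene in each state after surgery, because the CpG content of the promoters differed by state, as described further on. Each runs from 250 bases before to 50 bases after the RefSeq start (GRCm38.p6), read 5′ to 3′ on the strand of the gene, with every CpG in capitals. Insig1 (chr5:28071162-28071461, plus strand) had a TSS region in both lists, Cep152 (chr2:125625064-125625363, minus strand) in sham only, Mras (chr9:99436663-99436962, minus strand) in PHx only and Cnmd (chr14:79662134-79662433, minus strand) in neither. These states were read at the assigned start on GRCm39, which need not be the RefSeq start shown.
Insig1 promoter: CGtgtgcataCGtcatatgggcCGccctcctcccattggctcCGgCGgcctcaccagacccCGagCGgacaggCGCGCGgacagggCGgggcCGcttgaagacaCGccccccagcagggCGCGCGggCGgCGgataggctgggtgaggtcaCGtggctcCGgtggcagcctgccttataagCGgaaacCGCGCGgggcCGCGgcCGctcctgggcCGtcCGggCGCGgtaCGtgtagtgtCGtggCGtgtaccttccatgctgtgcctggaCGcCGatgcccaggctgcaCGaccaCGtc
Cep152 promoter: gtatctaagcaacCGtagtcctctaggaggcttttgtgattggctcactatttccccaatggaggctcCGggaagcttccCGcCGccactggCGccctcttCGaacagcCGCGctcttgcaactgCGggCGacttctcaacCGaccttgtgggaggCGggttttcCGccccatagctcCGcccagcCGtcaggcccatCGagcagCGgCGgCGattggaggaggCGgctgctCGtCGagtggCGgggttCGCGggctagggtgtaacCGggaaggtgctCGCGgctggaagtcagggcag
Mras promoter: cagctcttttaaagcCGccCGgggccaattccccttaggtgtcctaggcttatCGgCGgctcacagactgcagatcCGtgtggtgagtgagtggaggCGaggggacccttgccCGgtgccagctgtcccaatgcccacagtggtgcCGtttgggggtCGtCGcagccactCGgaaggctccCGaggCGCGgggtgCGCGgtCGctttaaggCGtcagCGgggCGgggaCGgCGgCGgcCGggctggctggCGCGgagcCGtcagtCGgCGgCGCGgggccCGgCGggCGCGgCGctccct
Cnmd promoter: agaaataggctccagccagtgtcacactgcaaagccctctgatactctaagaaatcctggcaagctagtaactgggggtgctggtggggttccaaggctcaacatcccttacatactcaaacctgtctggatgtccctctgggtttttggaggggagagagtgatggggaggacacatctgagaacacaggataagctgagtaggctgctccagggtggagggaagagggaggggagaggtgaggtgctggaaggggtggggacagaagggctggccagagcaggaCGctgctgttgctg
These promoters hold 38, 28, 36 and 1 CpG in turn, with a ratio of observed to expected CpG of 0.988, 0.905, 0.952 and 0.0466. They are single examples and not typical of their states. The ratios of Insig1, Cep152 and Mras lay above the medians of their states (0.812, 0.791 and 0.607), and that of Cnmd below (0.337). The Mylk promoter held 4 CpG with a ratio of 0.189. The assigned start of Mylk (34627335) had a region in both lists, but at another listed start of the gene (34605320) only the PHx list had one. The sequences of the 695 regions themselves are not shown.

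The 695 regions were narrower than the distal sham regions that overlapped a PHx region. Their median width was 6287 bp (95% interval 6179 to 6465 bp, quartiles 5213.5 and 7639 bp, range 858 to 22190 bp), against 8141 bp (8021 to 8277 bp) for the others. Intervals here and below reflect the number of regions counted and not the spread between animals, because regions do not replicate a condition. When all distal sham regions were ordered by width, 30.0% (27.4 to 32.6%) of the 1245 narrowest, up to 6456 bp, had no PHx overlap. The share was 18.8% of the 1247 in the middle and 7.06% (5.70 to 8.63%) of the 1246 widest, from 9333 bp up. A wide region meets a PHx region more easily, so this order is partly built into the rule. Distal PHx regions with no sham overlap had a median width of 12174 bp.

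**Figure D1:**
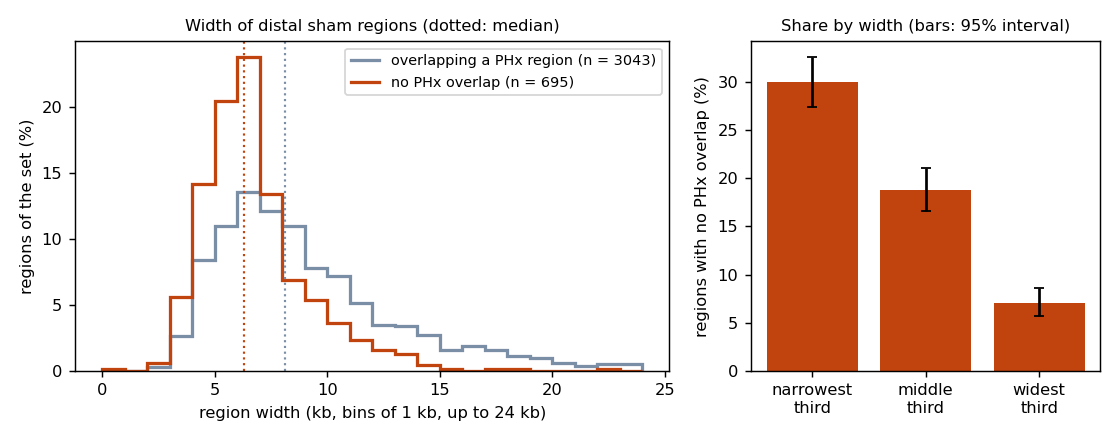
Widths of distal sham regions in bins of 1 kb as percent of each set, with dotted lines at the medians (left; regions of 24 kb or more are not drawn), and the percent of regions with no PHx overlap among the narrowest, middle and widest distal sham regions, with exact 95% intervals (right). The set with no PHx overlap has its median at 6287 bp against 8141 bp, and its share falls from 30.0% to 7.06% with width.

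The widest members had no common class. The widest of all (chromosome 1, 21385538 to 21407727) was intergenic, 12174 bp upstream of Khdc1a, and the next lay over 3′ UTRs or in intergenic sequence: Cnmd, which encodes the cartilage protein chondromodulin, Gm32756, Zp2, which encodes an egg coat protein, Mras, a RAS-family GTPase, and Specc1l (14458 bp). They were followed by an intron of Gas7 (14233 bp), an exon of Myh9 assigned to Apol8 (13728 bp), an exon of Jdp2, a repressor of AP-1, assigned to the predicted gene Gm33312 (13717 bp), and an exon of Sgpl1, the sphingosine-1-phosphate lyase (13519 bp). A TSS region after PHx was present for 4 of these 10, Zp2, Mras, Gas7 and Sgpl1, and absent in sham for all 10. The narrowest were at Gm4252 (858 bp), Gm39459 (2512 bp), Rslcan18 (2755 bp), Abhd6 (2956 bp) and Ccl9, a chemokine (2986 bp).

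By annotation class the 695 regions resembled the overlapping ones. Introns held 209 (30.1%, 26.7 to 33.6%), exons 174 (25.0%), intergenic sequence 171 (24.6%), 3′ UTRs 91 (13.1%), 5′ UTRs 42 (6.04%) and the stretch just downstream of genes 8 (1.15%). Among overlapping distal regions the shares were 32.8, 22.1, 21.9, 14.2, 7.43 and 1.68% in the same order. Among the classes with over 40 such regions, the share with no PHx overlap ranged from 15.7% of 5′ UTR regions (11.5 to 20.6%) to 20.6% of exon regions (17.9 to 23.5%). In the same classes the median widths ran from 6139 bp in intergenic sequence to 6752 bp in 3′ UTRs. A difference beyond the counting intervals was found in introns: 67 of 209 intron regions without a PHx overlap (32.1%, 25.8 to 38.8%) lay in the first intron, against 443 of 997 overlapping ones (44.4%, 41.3 to 47.6%). Among intron regions over 10 kb from the TSS 44 of 163 and 251 of 683 (36.7%) were in the first intron, with intervals that overlapped narrowly (20.3 to 34.5% and 33.1 to 40.5%).

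The regions lay somewhat farther from a TSS than the overlapping ones. The median distance was 16131 bp (14918 to 17223 bp), against 13707 bp (12981 to 14369 bp), and 70.4% against 62.9% lay beyond 10 kb. The share upstream of the TSS was 39.0% and 38.4%. Just inside the distance threshold were Gm33998 (3010 bp), Gm52683 (3037 bp), Gm35549 (3063 bp), Galnt11 (3128 bp) and Gm8948 (3179 bp). Just outside it, and so counted as promoter regions, were sham regions without PHx overlap at Gm52685 (2951 bp), Pla2g12a (2928 bp), Gm29863 (2906 bp), Gm4956 (2879 bp) and Gm51287 (2828 bp). The distance is measured to the start of the assigned transcript, and in 152 of 383 intron and exon regions (39.7%) the gene that held the region was another gene than the assigned one, against 41.8% of overlapping regions.

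Most of the nearest genes had no promoter region after PHx, but those with one in sham mostly kept it. A TSS region was counted where a listed region reached within 1 kb of the TSS. It was present in both lists for 210 of the 695 regions (30.2%), in sham only for 27 (3.88%), in PHx only for 68 (9.78%) and in neither for 390 (56.1%). Of the 237 regions whose gene had a TSS region in sham, 210 (88.6%, 83.9 to 92.4%) had one after PHx. Among overlapping distal regions that share was 94.3% (93.1 to 95.4%). Counting each of the 663 nearest genes once, 265 (40.0%, 36.2 to 43.8%) had a TSS region after PHx, 198 of them in both lists, and 26 had one in sham only.

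**Figure D2:**
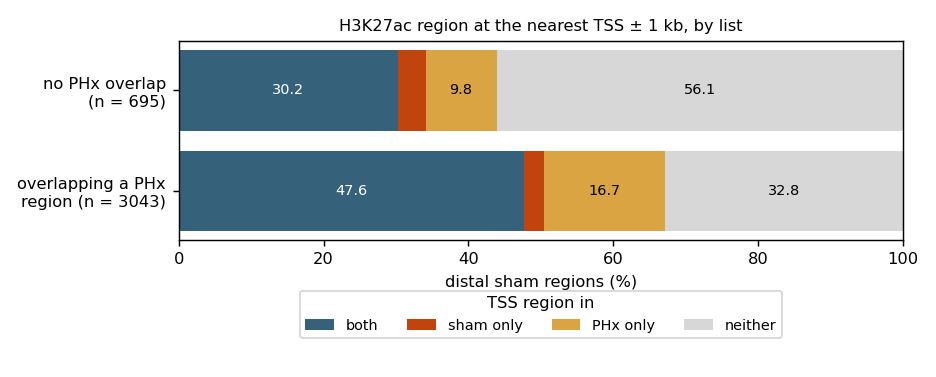
Percent of distal sham regions whose assigned TSS had a region within 1 kb in both lists, in sham only, in PHx only or in neither, for the 695 regions without a PHx overlap (top) and the 3043 with one (bottom). Neither list had a TSS region for 56.1% of the former and 32.8% of the latter.

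The nearest genes of overlapping distal regions had a TSS region after PHx more often, 63.2% of 2413 genes (61.3 to 65.2%). That order depends on the rule. In 1085 of the 1958 overlapping regions with a TSS region after PHx (55.4%), the PHx region at the TSS was the one that overlapped the distal region. Counting only other PHx regions, 873 of 3043 (28.7%, 27.1 to 30.3%) remained, beside 40.0% (36.3 to 43.8%) of the 695 regions. The 1085 regions stay in that denominator as if their TSS had no region. The share could therefore only fall, and it does not settle the order. In the sham list 34.1% of the 695 regions and 50.5% of the overlapping ones had a TSS region (30.6 to 37.8% and 48.7 to 52.3%). These shares are shaped by the same choice, since most TSSs with a sham region also had a PHx region. By range of width they were 37.3 and 47.7% among the narrowest, 30.8 and 48.0% in the middle and 29.5 and 54.7% among the widest. Protein-coding genes had a TSS region after PHx for 48.3% of the 416 regions assigned to them, and other genes for 27.6% of 279. At overlapping regions the shares were 73.3% of 1777 and 51.8% of 1266. With a reciprocal overlap of 50% as the definition of shared, 2659 regions had no partner and the order was the reverse, with a TSS region after PHx for 65.1% of these and 46.7% of the others. A sham region wholly inside a much wider PHx region has no partner by this definition, and 2296 of the 3043 overlapping regions lay wholly inside PHx regions.

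Where a TSS had a region in both lists, it was wider after PHx. At 201 such TSSs of the 695 regions the median went from 8662 bp in sham to 17514 bp, with a median ratio of 1.68 (1.50 to 1.85), and 184 of the 201 (91.5%) were wider. At the 1187 TSSs of overlapping regions the median ratio was 2.40 (2.27 to 2.50). The ratio was thus smaller at the TSSs of the 695 regions, and at overlapping regions the PHx region at the TSS can be the one that also covers the distal region.

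The few genes with a promoter region in sham only included a nuclear receptor. The widest of their distal regions were at Gm16793 (10379 bp, in the first intron of Mfhas1), Gm17619 (9500 bp), Gm31891 (9159 bp), Esrrg (9097 bp) and Gm30492 (8756 bp). Esrrg, an orphan nuclear receptor of oxidative metabolism, had its region in the second intron, 89147 bp downstream of the TSS and 522606 bp from any PHx region. On the opposite side, with a TSS region in PHx only, were Zp2, Mras, Gas7, Sgpl1 and Gm46371. At Gas7 the sham region in the first intron lay 3859 bp from a PHx region of similar width (14397 bp) in the same gene. At Mras, where the distal region covered the 3′ UTR 20273 bp from the TSS, the nearest PHx region was 17159 bp away.

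Most of the regions lay within 100 kb of a PHx region. The median gap to the nearest PHx region was 15018 bp (13583 to 17653 bp). It was under 1 kb for 40 regions, 1 to 10 kb for 234, 10 to 100 kb for 341 and 100 kb or more for 80. Among the smallest gaps were those at Psen2, a presenilin (6 bp), Ube2v1 (47 bp), Sipa1l1 (87 bp) and Gm35455 (90 bp). On the other side of the rule, small overlaps were found at Sync (8 bp), Sspo (21 bp), Cmtm7 (54 bp) and Slc6a6 (67 bp), so less than 100 bp decided membership at these loci. The 3043 overlapping regions were mostly far from that limit: 2296 lay wholly inside PHx regions, and 50 shared under 50% of their width. The largest gaps were at Pcdh15, a protocadherin of hair cells (1757706 bp), Gm40178 (1106757 bp), Gm14294 (590487 bp), Chrna7, an acetylcholine receptor subunit (527054 bp), and Esrrg.

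The nearest PHx region was a promoter region for 489 of the 695 (70.4%), was assigned to the same gene for 289 (41.6%) and itself overlapped a sham region for 551 (79.3%). A TSS region after PHx was found for 70.0% of regions with a gap under 1 kb and 68.4% of those at 1 to 10 kb, but for 25.8% at 10 to 100 kb and 2 of 80 (2.50%) beyond. A region at the TSS cannot be much farther away than the TSS itself, and only 11 of the 695 regions lay over 100 kb from their TSS, so this fall with distance is largely fixed by geometry. Intergenic regions made up 42.5% of that last set and 17.9% of those at 1 to 10 kb. The regions were also isolated in the sham list, at a median of 19193 bp (16669 to 21797 bp) from the nearest other sham region against 7407 bp (6977 to 7999 bp) for the overlapping ones.

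**Figure D3:**
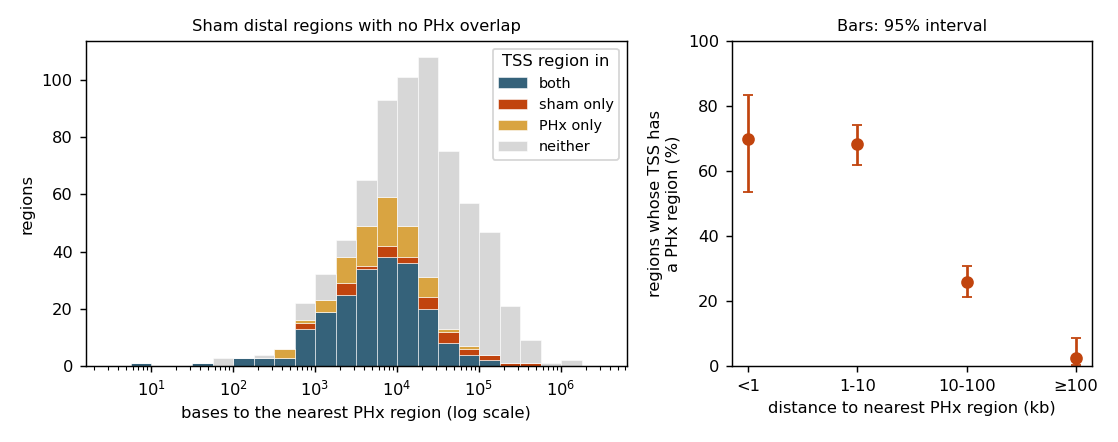
Number of regions without a PHx overlap by distance to the nearest PHx region, on a log axis and coloured by the lists with a region at the TSS (left), and the percent whose TSS had a PHx region in 4 ranges of that distance, with exact 95% intervals (right). The share goes from 70.0% under 1 kb to 2.50% at 100 kb or more, largely by geometry, since a PHx region at the TSS limits the distance.

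Absence from the PHx list does not by itself show absence from both PHx libraries. Peaks are numbered along the genome in each library, and a number missing between neighbouring PHx regions stands for a peak that entered no listed region. Only 140 of the 695 regions (20.1%, 17.2 to 23.3%) lay in a stretch with no such number in either library. Library 1 alone had one or more in the stretch of 96 regions, library 2 alone in that of 312, and both in that of 147. Of all stretches between neighbouring PHx regions 69.5% held none, but those with one of the 695 regions were longer (median 127594 bp against 39079 bp), and a missing number is not placed within its stretch. PHx library 2 had 3175 unused numbers of 14957 and library 1 had 1500 of 12096. The stretch that holds the Esrrg region and its TSS (2676892 bp) had 1 unused number of library 1 and 3 of library 2. The widest of the 140 were at Gas7, Gm33312, Dock5 (12698 bp), Gm46371 (12525 bp) and Ttll12 (11810 bp), and 53.6% of the 140 had a TSS region after PHx. In the sham list, 98.3% of the 695 regions were made of exactly 1 peak of each library, against 89.7% of the overlapping ones.

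The 23 lists looked up cover liver functions, growth, and other cells and tissues. Among their 744 genes, 124 had a distal sham region, and 19 of these had one without a PHx overlap; by region this was 22 of 166 (13.3%), beside 18.6% of all distal sham regions. None was found at the 6 distal regions each of plasma protein genes, drug metabolism genes and IL-6, STAT3 and acute phase genes, nor at 2 of immediate early genes, 5 of fatty acid oxidation genes, 13 of Wnt, Hippo and Notch genes, 11 of chromatin modifier genes, 10 of endothelial genes, 2 of Kupffer cell genes and 3 of lymphocyte genes. Cholangiocyte and neutrophil genes had no distal sham region. With so few regions per list these counts separate no list from the background, and neither does the total.

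Hepatocyte transcription factors had 4 of their 18 distal regions in the set, all at genes whose promoter was covered in both lists. Prox1, a homeobox factor of hepatocyte fate, had 2, of 5251 bp over exon 4 and of 4056 bp in an intron of the antisense gene Prox1os, with a promoter region of 24363 bp in sham and 25971 bp after PHx. Rora, a nuclear receptor that also gave the clock list its 1 of 8 regions, had 1 in the second intron (7051 bp), 41104 bp from the nearest PHx region.

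Genes of growth hormone and prolactin signalling had 3 of 10. Prlr, the prolactin receptor, had 2 in its introns, at 10261585 to 10268117 (6533 bp) and 10305878 to 10312555 (6678 bp) of chromosome 15. Between and beside them the sham list had promoter regions at the TSSs at 10276727 (12451 bp) and 10293737 (6677 bp), where the PHx list had none. The PHx list instead had promoter regions assigned to Prlr at the TSSs at 10177324 (7639 bp) and 10249651 (10929 bp), upstream of both. At the TSS at 10216046 both lists had a region within 1 kb. The acetylated start sites of Prlr in the lists were therefore partly different ones, and the stretch of the PHx list that holds both regions had 1 unused number of each PHx library. Stat5b, which transmits growth hormone signals, had a region over exon 12 (4848 bp), 14428 bp from its PHx promoter region and with no unused number.

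Among cell cycle genes 3 of 7 regions were in the set. Ccnd1, cyclin D1, had 2 neighbouring ones, of 9289 bp and 3918 bp, at 46104 and 55596 bp upstream of the TSS. The TSS itself was covered in both lists, and the next PHx region upstream (17634 bp) began 5305 bp beyond the farther one. The stretch of the PHx list that holds both regions had 1 unused number of PHx library 1. Cdk6, a cyclin D partner, had 1 in its second intron (8539 bp), with no TSS region in either list. It lay before the first PHx region of its chromosome, with at most 1 unused number of PHx library 1. Growth factor genes had 2 of 15, at the 3′ UTR of Egf (5631 bp, 79297 bp from a PHx region) and at Fgfr3 (7652 bp, 1026 bp from one).

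Of lipid genes 2 of 11 regions were in the set, both over 3′ UTRs and both in stretches without unused PHx numbers, and 1 of them is described. Insig1, the sterol sensor that retains SREBP in the endoplasmic reticulum, had a region of 6255 bp, 6804 bp downstream of the TSS and 1342 bp from the PHx promoter region. That promoter region spanned 17197 bp in the sham list and 16895 bp in the PHx list. Bile acid genes had 1 of 4, glucose and amino acid genes 1 of 19 and antioxidant genes 1 of 6, namely Abcc3, an exporter of bile acids and conjugates (7531 bp), Ppp1r3c, a glycogen-targeting phosphatase subunit (5571 bp), and Gclc, of glutathione synthesis (4710 bp), each with a TSS region in both lists.

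**Figure D4:**
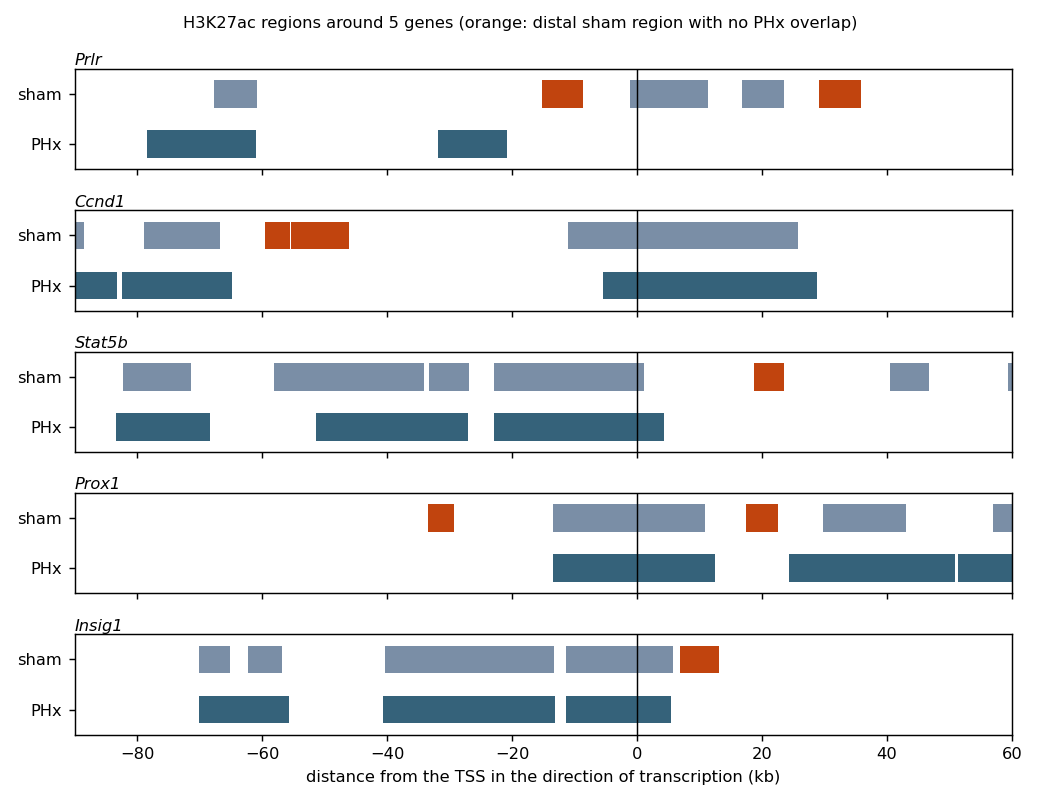
Sham and PHx regions around 5 genes by distance from the TSS in kb, in the direction of transcription, with distal sham regions without a PHx overlap in orange, other sham regions in grey and PHx regions in blue. At Stat5b, Prox1, Insig1 and Ccnd1 the TSS is covered in both lists, and at the drawn Prlr start in sham only.

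Genes of other cells and tissues contributed 5 regions. Stellate cell and fibroblast genes had 3 of 5: Mylk, the myosin light chain kinase, in its second intron (13327 bp), Col6a2, a collagen VI chain, over exon 11 (10847 bp), and Tpm2, a tropomyosin, at a 3′ UTR (8444 bp). The TSS region was in both lists at Mylk, in neither at Col6a2 and in PHx only at Tpm2. From the list of other tissues came Zp2 and the synaptic gene Snap25 (6628 bp, 204520 bp from a PHx region).

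Transcription factors of any family, as annotated in the deposited lists, were the nearest gene of 31 regions (4.46%, against 4.80% of overlapping regions) and 26 genes. Of these genes 16 had a TSS region after PHx. The forkhead family, singled out after its values were seen, had 5 of its 19 distal regions in the set, at Foxk2 (6534 bp), Foxq1 (6263 bp), Foxp4 (5025 bp), Foxp1 (4817 bp) and Foxn3 (3718 bp), each with a promoter region in both lists. Bach2 and Klf12 had 2 regions each in introns and no TSS region in either list. The thyroid hormone receptor gene Thrb had 1 of 9380 bp in its first intron, with a TSS region in both.

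Among the 15 largest pathways annotated in the lists, the share of genes with such a region was 29.0% for PI3K-Akt signalling (18 of 62 genes), 31.8% for MAPK signalling (14 of 44), 23.5% for AMPK signalling (8 of 34), 40.5% for calcium signalling (15 of 37) and 45.5% for axon guidance (15 of 33). It was 20.6% for cAMP signalling (7 of 34) and 17.6% for Salmonella infection (6 of 34). Beside these stand 22.6% of all 2934 genes with a distal sham region and 23.1% of the 744 with any annotated pathway. A gene with more distal regions is counted more easily, and the shares were not adjusted for this. These pathways were ranked by size and share many genes, no enrichment was tested, and the genes named next were chosen after their values were seen. Regions at Mtor, a nutrient-responsive kinase (exon 4, 6626 bp), its scaffold partner Rptor (second intron, 4468 bp), and the AMPK subunits Prkaa2 (first intron, 3444 bp) and Prkag2 (intergenic, 5613 bp) all lay in stretches without unused PHx numbers. Tsc1, an inhibitor of mTOR complex 1 (5447 bp), and Rps6, a ribosomal protein phosphorylated downstream of it (4755 bp), did not. At the assigned start, which can lie inside the gene, a TSS region was present in both lists for Prkaa2, Prkag2 and Tsc1, in PHx only for Mtor and Rps6, and in neither for Rptor. Rptor also had 2 distal regions found in PHx only, the nearer 4992 bp from its sham region, and Prkag2 had 1, 73608 bp away.

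The regions were spread singly over the genome. Only 29 of the 663 genes had more than 1, and 2 had more than 2, namely LOC118568675 with 4 and Cers6, a ceramide synthase, with 3. The Cers6 regions (6347, 6771 and 10243 bp) lay in 1 stretch of 252326 bp without a PHx region, and the narrowest of them was assigned to a start with a TSS region in both lists, the other two to a start with none. The share of distal sham regions without a PHx overlap went from 13.7% on chromosome 8 to 24.4% on chromosome 5 among the autosomes, and 3 of 6 on the X chromosome had none.

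Some genes had a distal region in each list at different places. Of the 663 genes, 62 (9.35%, 7.24 to 11.8%) also had a distal region found in PHx only, which is 7.19% of the 862 genes with such a PHx region. The share was 6.87% (5.86 to 7.99%) among 2271 genes with overlapping distal sham regions only. Between the nearest such pair the median gap was 18780 bp (87 to 242480 bp), and it was under 10 kb for 25 genes. At Foxq1, for example, the sham region 24051 bp upstream and the PHx region 31985 bp upstream (11662 bp) were 1671 bp apart. Another distal sham region that did overlap was found for 142 of the 663 genes (21.4%), which can include some of the 62.

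By RefSeq biotype 59.9% of the regions had a protein-coding nearest gene and 27.1% a long non-coding RNA, against 58.4 and 28.7% of overlapping regions. The CpG content of the promoters differed by the state of the assigned TSS. It was computed at the RefSeq start for the 329 of the 663 genes with a single RefSeq start. That start need not be the assigned TSS whose state is given. The median ratio of observed to expected CpG was 0.812 (quartiles 0.624 and 0.928) for 97 genes with a TSS region in both lists, 0.791 for 13 in sham only, 0.607 for 36 in PHx only and 0.337 (0.187 and 0.711) for 183 in neither, beside 0.374 for 22862 RefSeq genes. Promoters of genes whose assigned TSS had a region in both lists were thus mostly CpG-rich. Of these, 78.4% (68.8 to 86.1%) exceeded a ratio of 0.6, against 60.8% (56.9 to 64.7%) of 623 such promoters at overlapping regions. With a TSS region in PHx only the median was 0.607 against 0.357 at overlapping regions, and 52.8% (35.5 to 69.6%) against 30.5% (24.1 to 37.4%) exceeded 0.6, with intervals that overlapped narrowly. Genes with a TSS region in neither list had medians of 0.337 and 0.351.

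**Figure D5:**
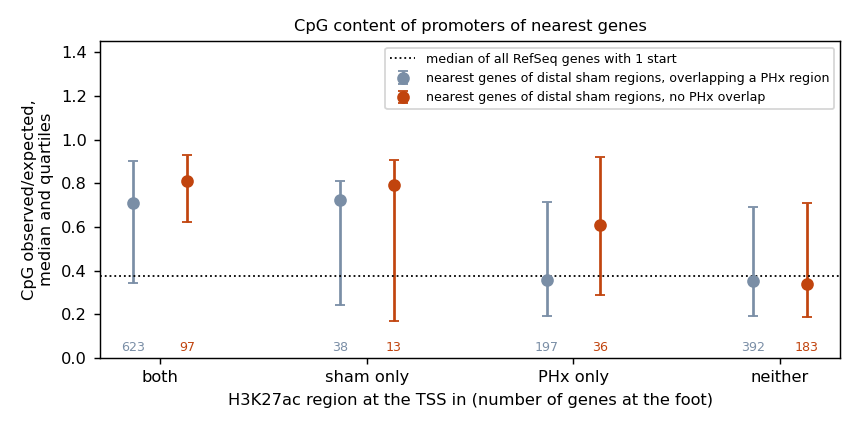
Ratio of observed to expected CpG in the 300 bases around the RefSeq start for nearest genes, by the lists with a region at the assigned TSS. The assigned TSS need not be the RefSeq start. Points are medians with quartiles, with the number of genes at the foot. The dotted line is the median of all RefSeq genes with 1 start. Medians for genes of regions without a PHx overlap are 0.812, 0.791, 0.607 and 0.337 from left to right.

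In the same promoters 19 short motifs were searched on both strands by exact letters, and 3 are named here after their values were seen. The C/EBP motif TTGCNNAA was found in 9.73% of the 329 promoters (6.75 to 13.5%), 9.68% of 1250 promoters at overlapping regions and 10.8% of all RefSeq promoters. The AP-1 motif TGANTCA was found in 4.86% (2.80 to 7.78%), 7.52% and 7.98%, and the E-box CACGTG in 8.51% (5.73 to 12.1%), 9.28% and 7.12%. Each of these 3 intervals held the share of the overlapping set, and that of AP-1 ended just below the share over all RefSeq promoters. A match is a run of letters and not a bound site.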

How the data were processed

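H3K27ac CUT&Tag of mouse liver was compared between 2 sham libraries and 2 libraries 12 h after hepatectomy. The authors deposited 1 merged region list per group. Positions, widths and distances to the TSS, in bp, were deposited per the file headers, with annotation, pathways and peak numbers, and no signal. GRCm39, Bowtie2, DiffBind, ChIPseeker and SEACR are named, per the submitters' processing notes, with neither version nor role. The caller's thresholds were not given in the sources used here. Every listed region held peaks of both libraries, so peaks of a single library are missing and depth is unknown.

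Overlap, gaps, TSS windows, peak numbers and promoter CpG were computed with Python 3.11.15, pandas 2.3.3 and scipy 1.17.1, and the scripts were tested on simulated regions. Shares have exact Clopper-Pearson 95% intervals, and medians have intervals from binomial order statistics. No p-value is possible without values per library. RefSeq GRCm38.p6 gave biotypes, promoters and microRNAs only. The members, the lists and their genes were chosen with earlier results of these data known.

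Named regions are the 10 widest, 5 narrowest, 5 farthest from and 5 nearest to PHx regions, 5 on each side of the distance threshold, all whose gene is on a list, genes with 3 or more, and the 5 widest with a TSS region in sham only, in PHx only, or without unused PHx numbers; others are said to be chosen afterwards or belong to counts. Some regions under this rule are not reported here.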

Additional observations from a re-analysis of the deposited data

How the results depend on the processing

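Of 68 values under other settings, 33 stayed near the main value and 35 moved. With a reciprocal overlap of 50%, 2659 regions (71.1%) had no partner, with a median width of 7107 bp, 34.3% in introns, a median distance to the TSS of 13563 bp, 63.5% of genes with a TSS region after PHx, 93.9% with 1 peak of each sham library, 369 genes with several regions and 89 list genes. At more than 10 kb from any PHx region, 420 regions (11.2%) remained, with 17889.5 bp to the TSS, 21.7% of genes with a TSS region after PHx, 55.7% protein-coding and 14.8% without unused PHx numbers. Without unused PHx numbers, 140 (3.75%) remained, with a width of 6067.5 bp, 24.3% in introns, 53.3% of genes with a TSS region after PHx, 8414 bp to the nearest PHx region, 4 list genes and 66.4% protein-coding. Below the median width of sham regions, 26.3% had no overlap and 100% of these had 1 peak of each library. At or above it there were 149 (8.96%), with 23.5% in introns, 35.8% of genes with a TSS region, 91.9% with 1 peak of each library, 12.1% without unused numbers and 53.7% protein-coding. Beyond 10000 bp from a TSS the share was 20.4%, with 44.2% of genes with a TSS region, and with any listed TSS, an alternative added after the data were seen, that was 46.5%.

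The TSS share stayed below that of overlapping distal regions with a window of 3 kb (41.5 and 67.7% of genes) and by the authors' own assignment (37.0 and 53.5%). No paired analysis was possible because the lists hold no values per library, and leaving out a replicate was not run for the same reason. The sequence of the regions was not analysed here. Depth is unknown, so absence of the mark and a peak missed by the caller cannot be told apart.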
